A study of Bos grunniens x Bos taurus and Bos grunniens with 6 samples.

Results

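The genes described here encode cytokines, chemokines and their receptors, measured by RNA sequencing in the testis of cattle-yak and yak. A gene belonged to the group when its symbol named a CC, CXC or CX3C chemokine, a chemokine receptor, an atypical chemokine receptor, an interleukin or its receptor, or a ligand or receptor of the tumour necrosis factor (TNF) superfamily, with 1 chemokine gene left out by the rule. This gave 150 genes with 141 different symbols, out of 18918 genes in the table. The name pattern also took in IL4I1, which encodes an amino acid oxidase and is no cytokine. The cattle-yak group held 3 males, first-generation offspring of Jersey bulls and Gannan yak cows, and the yak group held 3 Gannan yak males. Every animal was 4 years old, and each gave 1 library, titled TES5, TES6 and TES7 for cattle-yak replicates 1 to 3 and Yak8, Yak9 and Yak10 for yak replicates 1 to 3. The labels name no agent or engineered allele. Cattle-yak and yak were kept in separate counties, and the study's methods give surgical castration for the cattle-yak and collection after death for the yak, while the labels give castration for all, so hybrid origin, place and way of collection cannot be told apart.

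Cytokines are secreted or membrane-bound proteins that carry signals between cells over short distances. Interleukins bind receptors built from several chains, most of which signal through JAK kinases and STAT factors or, for the IL-1, IL-18 and IL-17 families, through adaptor proteins to NF-kappa B. Chemokines direct cell migration through receptors coupled to G proteins, while atypical receptors take up chemokines without that signal. TNF superfamily ligands act through receptors that recruit TRAF or death-domain adaptors. In the testis these proteins are made by macrophages, Sertoli, Leydig, peritubular and germ cells as well as by lymphocytes, and they are known from the control of germ cell survival and the blood-testis barrier.

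Between 11175100 and 11834987 fragments fell on genes in the cattle-yak libraries and between 12991641 and 13136129 in the yak libraries, so that 1 fragment on a gene of 1 kb was worth 0.0761 to 0.0895 FPKM (fragments of a library per kilobase of gene model, scaled to depth). No library was a copy of another. The libraries differed strongly in the cell types that marker genes stand for. The summed FPKM of 6 spermatid genes lay between 18.3 and 85.9 in the cattle-yak libraries, against 9060 to 11018 in those of yak, and all 6 fell. All 11 Sertoli cell markers rose, with a sum of 1669 to 1815 against 415 to 428, as did all 6 Leydig cell and all 6 myoid cell markers. In bulk tissue, fewer cells of a type and less RNA per cell cannot be told apart, and what these shifts contribute to each value below was not tested.

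Of the 150 genes, 83 had a mean of at least 0.5 FPKM over the 6 libraries and were tested, and 67 did not. The test was limma on log2(FPKM + 1) across all 15042 genes above that filter. Calling a gene took 2 conditions, a p below 0.05 after Benjamini-Hochberg adjustment and a log2 fold change, cattle-yak over yak, past 1 in size. The pseudocount of 1 understates the change of genes with low values. TNFSF13, at a mean of 0.488 FPKM, lay just outside the filter and IL33, at 0.502 FPKM, just inside. Among the tested genes, 27 were called higher and 15 lower in cattle-yak, or 32.5% and 18.1%, beside 33.4% and 20.8% of all tested genes. The shares lay close to that background, so their number does not set these genes apart. Their median log2 fold change was 0.58, beside 0.51 over all tested genes. Every cattle-yak library lay above every yak library for 41 of the 83 (49.4%, beside 53.9% of all genes) and below for 21 (25.3%, beside 30.2%), and the groups overlapped for the other 21. Fold changes below are relative to yak, and the all-gene median of 0.51 falls to 0.01 after scaling the libraries by median-of-ratios size factors.

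**Figure D1:**
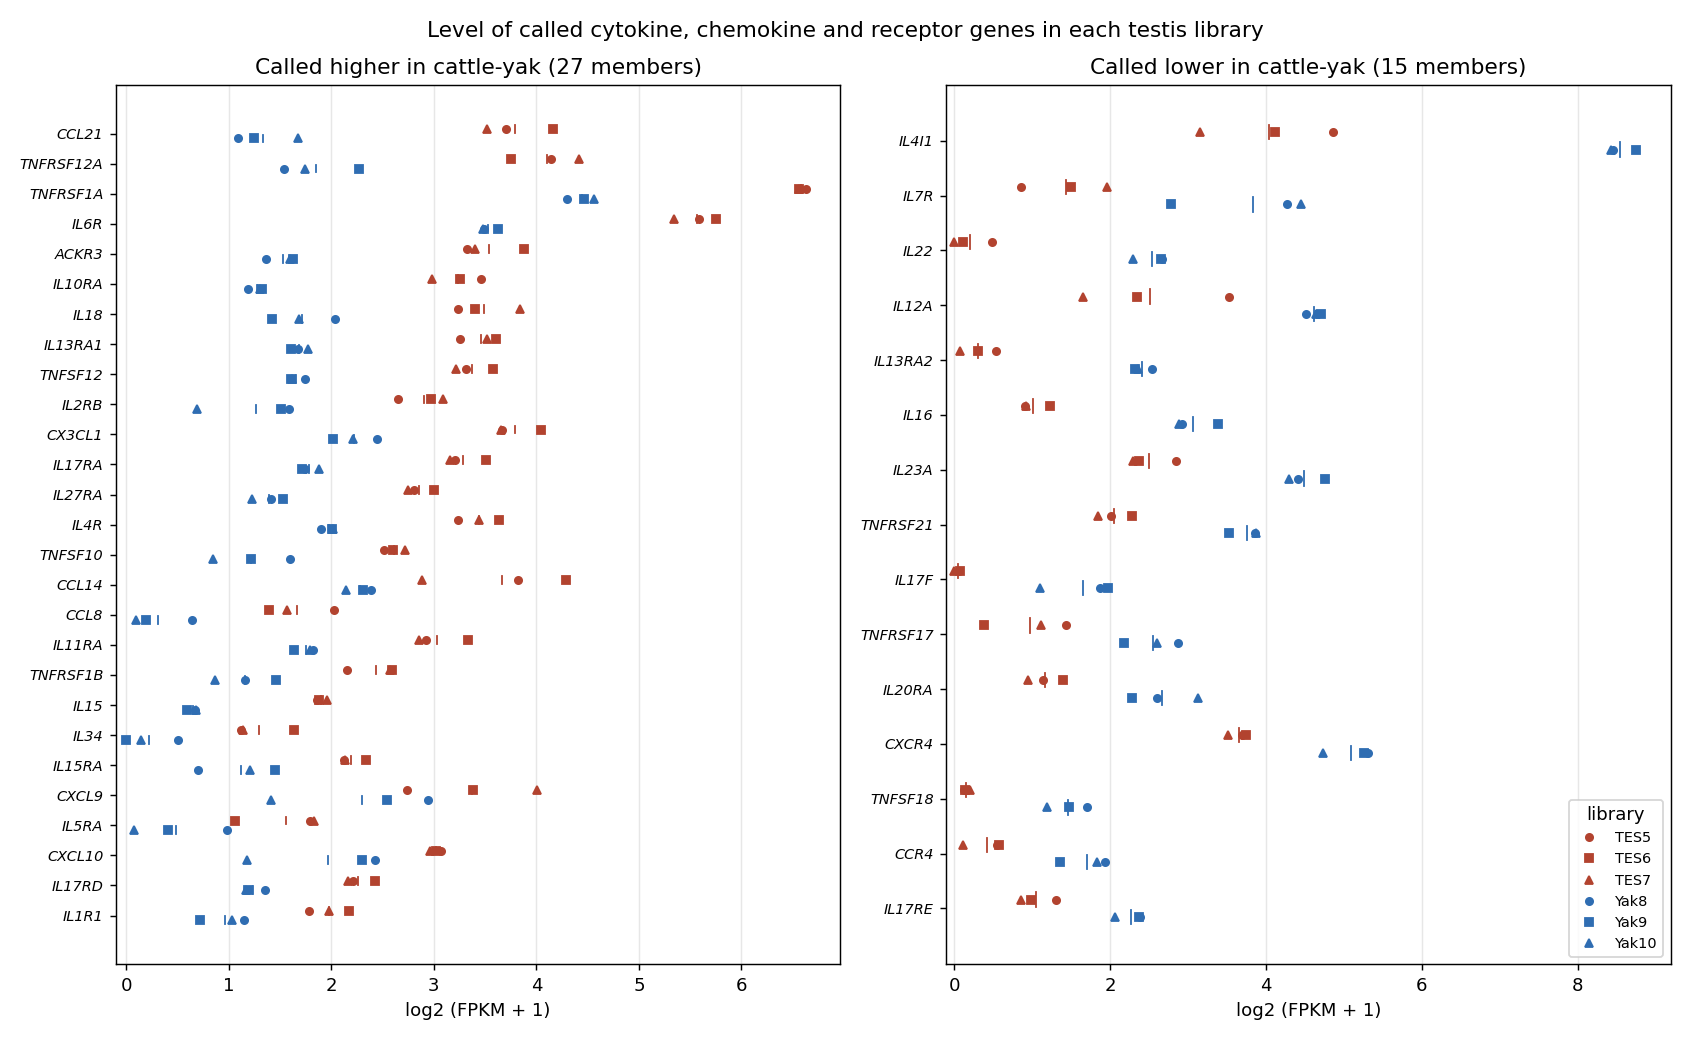
Level of each called gene in each library, as log2(FPKM + 1) on the horizontal axis, with the 27 genes called higher in cattle-yak in the left panel and the 15 called lower in the right panel, each ordered by fold change. Red symbols are the 3 cattle-yak libraries, blue symbols the 3 yak libraries, and vertical ticks the group means; CXCL9 is the called gene whose groups overlap.

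By class of molecule, the counts are read beside the 33.4% called higher and 20.8% called lower of all tested genes. Chemokine ligands gave 6 calls higher (35.3%) and 0 lower among 17 tested of 30 genes, with a median log2 fold change of 0.66. Interleukin receptors gave 12 higher (52.2%) and 4 lower (17.4%) among 23 tested of 39, with a median of 1.01. Interleukin ligands had 3 called higher and 5 lower (41.7%) among 12 tested of 30, with a median of 0.10. Chemokine receptors had 1 higher (8.33%) and 2 lower (16.7%) among 12 tested of 22, with a median of 0.09. TNF receptors had 3 higher and 2 lower among 12 tested of 16, and TNF ligands 2 higher and 1 lower among 6 tested of 12. These counts describe the lists and no difference between classes was tested. After median-of-ratios scaling the chemokine ligands had 3 higher and 0 lower, the interleukin receptors 6 and 5, the interleukin ligands 1 and 5, and the chemokine receptors 1 and 4, beside 17.7% and 27.8% of all tested genes.

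**Figure D2:**
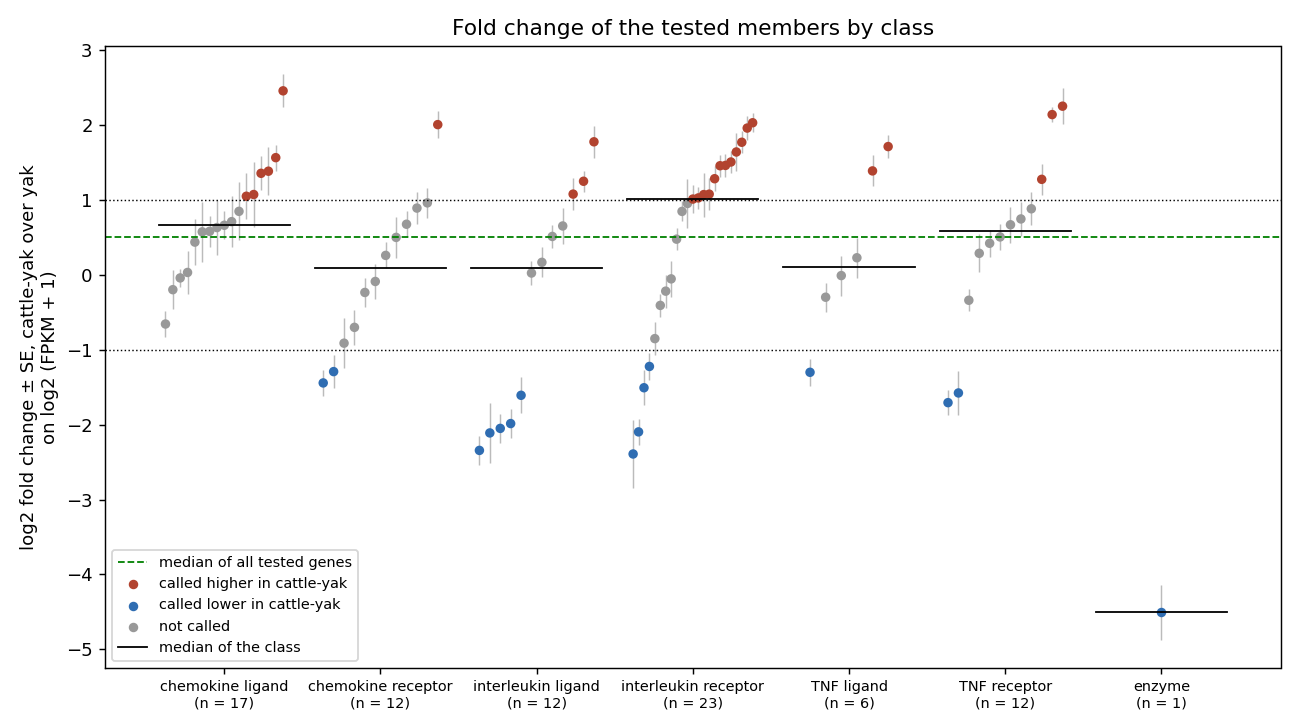
Log2 fold change of each of the 83 tested genes, cattle-yak over yak on log2(FPKM + 1), grouped by class, with grey bars for ± SE. Red and blue points are genes called higher and lower in cattle-yak, grey points are not called, black lines are class medians, the green line is the median of all tested genes (0.51) and the dotted lines mark the fold threshold of 1; the class of enzymes holds IL4I1 alone, at -4.50.

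Among chemokine ligands, CCL21, which guides lymphocytes and dendritic cells along lymphatic vessels, had the largest rise. It (ENSBGRG00000002952) measured 12.0, 16.9 and 10.4 FPKM in TES5, TES6 and TES7 and 1.13, 1.37 and 2.19 FPKM in Yak8, Yak9 and Yak10. All cattle-yak libraries were several-fold above all yak libraries. The ratio of group means was 8.40 and the log2 fold change 2.46 (SE 0.22, adjusted p = 1.6e-05). Its receptor CCR7 was barely seen, with a value above 0 in TES6 alone (0.157 FPKM), and CCL19, the other CCR7 ligand, was listed between 0 and 0.338 FPKM in cattle-yak and between 0.229 and 1.30 FPKM in yak.

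CX3CL1, or fractalkine, a membrane-anchored chemokine of endothelium and epithelium, measured 11.6, 15.5 and 11.6 FPKM in cattle-yak and 4.45, 3.03 and 3.62 FPKM in yak. The groups were well separated, with a log2 fold change of 1.57 (SE 0.17, adjusted p = 5.1e-05). Its receptor CX3CR1, of monocytes and macrophages, was low in both groups, at 0.967 ± 0.147 FPKM (SD, n = 3) in cattle-yak and 0.236 ± 0.177 FPKM in yak. The receptor passed the adjusted p (0.0059) with a log2 fold change of 0.68, within the fold threshold, and was called higher with a pseudocount of 0.1 (1.80) and with voom on recovered fragments (2.12).

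The monocyte chemokines did not move as a group. CCL8 measured 3.08, 1.63 and 1.97 FPKM in cattle-yak against 0.556, 0.139 and 0.0702 FPKM in yak, and was called higher (log2 fold change 1.36, SE 0.23, adjusted p = 5.9e-04). CCL2, the best known attractant of monocytes, stayed at 0.762, 0.346 and 0.389 FPKM against 0.638, 1.43 and 0.248 FPKM, with overlapping groups (log2 fold change -0.20, SE 0.26). CCR2, its receptor, had a log2 fold change of -0.09 (SE 0.23), and its sign turned when TES5 or Yak8 was left out. CCL14 was called higher, at 13.1, 18.6 and 6.39 FPKM against 4.23, 3.96 and 3.42 FPKM (log2 fold change 1.39, SE 0.32, adjusted p = 0.0037), with the call lost under median-of-ratios size factors. Another gene annotated as CCL14 held at most 1 fragment in any library. CCL25, which attracts T cells to thymus and gut, was nearly level at 7.35 to 7.80 FPKM in cattle-yak and 7.17 to 8.36 FPKM in yak (log2 fold change -0.04, SE 0.12).

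CXCL9, CXCL10 and CXCL11 are induced by interferon and share the chemokine receptor CXCR3 of T cells. CXCL10 measured 7.38, 7.14 and 6.82 FPKM in cattle-yak and 4.38, 3.91 and 1.27 FPKM in yak, so that the cattle-yak libraries agreed closely while Yak10 was low. Its log2 fold change was 1.05 (SE 0.31, adjusted p = 0.012), and fell to 0.66 without Yak10 and to 0.55 (adjusted p = 0.15) after median-of-ratios scaling, both without a call. CXCL9 measured 5.69, 9.43 and 15.0 FPKM against 6.68, 4.85 and 1.67 FPKM, where TES5 lay below Yak8. It was called with a log2 fold change of 1.07 (SE 0.43, adjusted p = 0.046), and the call was lost without TES6, TES7, Yak9 or Yak10, at 0.63 without Yak10, and also with a pseudocount of 0.1, no filter, no trend and median-of-ratios scaling (adjusted p = 0.053 to 0.27). CXCL11 spread from 0.985 to 3.65 FPKM in cattle-yak and from 0.245 to 2.10 FPKM in yak, with no call. The 3 ligands summed to 14.0, 18.2 and 25.5 FPKM in cattle-yak and 13.2, 9.65 and 3.18 FPKM in yak. CXCR3 itself lay under the filter, with 7, 21 and 11 fragments against 4, 4 and 0. CCL5, an attractant of T cells and monocytes, overlapped between groups, at 3.61, 4.21 and 5.63 FPKM against 2.45, 5.10 and 1.04 FPKM (log2 fold change 0.63, adjusted p = 0.14), and would be called without Yak9 (1.03). CXCL16 overlapped as well, at 5.43 to 7.05 FPKM against 2.39 to 7.52 FPKM, and its log2 fold change of 0.44 turned to -0.072 after median-of-ratios scaling. The 3 genes annotated as CCL3 and the gene of CCL4 held at most 14 fragments each in any library, and since fragments may be split among near-identical copies their values are uncertain, and 1 CCL3 gene was called higher without TES5 (1.33).

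Chemokine receptors moved in both directions. CXCR4, known from the homing of blood and germ line stem cells, was the most abundant of them and was called lower. It (ENSBGRG00000001345) measured 11.9, 12.4 and 10.5 FPKM in cattle-yak and 38.5, 37.1 and 25.5 FPKM in yak, a yak over cattle-yak ratio of 2.90 (log2 fold change -1.44, SE 0.17, adjusted p = 7.0e-05). ACKR3, an atypical receptor that removes chemokine from the surroundings of cells, went the other way. It (ENSBGRG00000017157) measured 9.03, 13.7 and 9.55 FPKM in cattle-yak and 1.58, 2.08 and 2.02 FPKM in yak, a ratio of 5.69 (log2 fold change 2.01, SE 0.18, adjusted p = 1.7e-05). Neither pair of groups overlapped, and both calls held under every alternative.

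CCR4, found on type 2 helper and regulatory T cells, was the other receptor called lower, at 0.469, 0.497 and 0.0798 FPKM against 2.82, 1.55 and 2.57 FPKM (log2 fold change -1.29, SE 0.22, adjusted p = 6.2e-04). Its ligands CCL17 and CCL22 were at or near 0 throughout, with at most 2 fragments of CCL17 in a library. CCR8, CXCR6 and CX3CR1 passed the adjusted p with higher values in cattle-yak, at log2 fold changes of 0.96, 0.89 and 0.68, and ACKR1, which carries chemokines across venules, with lower ones (-0.91), though Yak9 alone reached 2.95 FPKM beside 0.627 and 0.634 FPKM in the other yak libraries. ACKR1 was called lower after median-of-ratios scaling (-1.12), where CXCR6 stood at 0.66 (adjusted p = 0.024) and CX3CR1 at 0.47 (adjusted p = 0.038). With 1 library left out, CCR8 was called higher without TES5, TES6 or Yak8 (1.03 to 1.07), CXCR6 without Yak9 (1.01), and ACKR1 lower without Yak8 or Yak10 (-1.13 and -1.12). All 3 were called with a pseudocount of 0.1 and with voom on recovered fragments, at 1.88 and 1.88 for CCR8, 2.18 and 2.802 for CXCR6, and -2.17 and -2.53 for ACKR1. The scavenger ACKR2 overlapped between groups (log2 fold change -0.23, SE 0.20). Of 2 genes annotated as CCR1, one overlapped and the other had a log2 fold change of -0.70 (adjusted p = 0.022) and was called lower after median-of-ratios scaling (-1.02), with a pseudocount of 0.1 (-1.30) and with voom (-1.39), and these copies may share fragments. Among untested receptors, CXCR5, the follicular B cell receptor, held 0 fragments in each cattle-yak library and 7, 6 and 10 in yak. That was 6.76-fold higher in yak against a floor of 3 fragments over the cattle-yak group. CCR3, the eotaxin receptor, held 1 fragment in all cattle-yak libraries together and 28 in yak, a depth-scaled ratio of 24.7 (exact 95% counting interval 4.08 to 1010). Counting intervals cover counting error only. A fold against such a floor leaves out the counting error of the group with fragments and is no lower bound. CCL26, a ligand of CCR3, ran the other way, with 19 fragments in cattle-yak and 2 in yak, a ratio of 10.8 (95% interval 2.60 to 95.3).

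Among interleukin receptors, the largest rise was that of IL6R, a receptor of the IL-6 family. IL6R, the ligand-binding chain for interleukin-6, measured 47.1, 52.9 and 39.7 FPKM in cattle-yak and 10.2, 11.3 and 10.2 FPKM in yak. The ratio of means was 4.41 and the log2 fold change 2.03 (SE 0.13, adjusted p = 2.3e-06). IL11RA rose from 2.37 ± 0.233 to 7.29 ± 1.54 FPKM (SD, n = 3 in each group, log2 fold change 1.29) and IL27RA from 1.63 ± 0.275 to 6.24 ± 0.660 FPKM (1.46). All 3 receptors of the family that were analysed were called higher, and IL11RA lost its call after median-of-ratios scaling (0.79). IL6ST was not analysed here. The ligands were scarce and leaned towards yak. IL6 (ENSBGRG00000000868) held 0 fragments in each cattle-yak library and 18, 18 and 7 in yak, 12.6-fold higher in yak against the floor of 3 fragments. IL11 held 3 fragments in cattle-yak and 28 in yak, a ratio of 8.23 (95% interval 2.54 to 42.3), and IL27 held at most 3 in any library. In the fit with no filter, IL6 had an adjusted p of 0.0014 and IL11 of 0.0088, with log2 fold changes of -0.86 and -0.36 on the log2(FPKM + 1) scale, where 1 FPKM was not reached by the mean of either gene.

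In the family of the common gamma chain, IL15, IL15RA and IL2RB were called higher and IL7R was called lower, while the common chain IL2RG was not called. IL15, a growth factor of natural killer and memory T cells, measured 2.63, 2.68 and 2.87 FPKM in cattle-yak and 0.592, 0.509 and 0.599 FPKM in yak, a narrow spread in both groups (log2 fold change 1.25, SE 0.14, adjusted p = 5.5e-05). IL15RA, which presents IL-15, measured 3.35, 4.04 and 3.39 FPKM against 0.621, 1.72 and 1.31 FPKM (1.08), and IL2RB, the signalling chain, 5.27, 6.84 and 7.53 FPKM against 2.01, 1.84 and 0.613 FPKM (1.64). IL2RB held its call under every alternative, IL15 lost it after median-of-ratios scaling (0.91), and IL15RA lost it there (0.67) and without Yak8 (0.87). The shared chain IL2RG passed the adjusted p (0.024) at 0.95, with Yak10 at 0.654 FPKM below 2.98 and 2.59 FPKM in the other yak libraries, and was called without TES5, Yak8 or Yak9 (1.06 to 1.19), with a pseudocount of 0.1 (1.34) and with voom (1.39).

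IL7R, the receptor of lymphocyte survival, measured 0.810, 1.84 and 2.89 FPKM in cattle-yak and 18.3, 5.85 and 20.8 FPKM in yak. Yak9 was well below the other yak libraries yet above every cattle-yak library. The log2 fold change was -2.39 (SE 0.46, adjusted p = 0.0013), with the widest error among genes called lower. Its ligand IL7 had 0.848 ± 0.145 FPKM in cattle-yak and 0.295 ± 0.121 FPKM in yak (SD, n = 3). It passed the adjusted p (0.016) within the fold threshold (0.51), and was called with a pseudocount of 0.1 (1.30) and with voom (1.53). After median-of-ratios scaling IL7 stood at 0.30 and did not pass the adjusted p (0.12). IL21 and IL13 held at most 5 fragments in any library.

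The receptors of IL-4 and IL-13 split by chain. IL4R measured 8.39, 11.4 and 9.87 FPKM in cattle-yak and 2.73, 3.03 and 3.06 FPKM in yak (log2 fold change 1.46, SE 0.15, adjusted p = 3.3e-05). IL13RA1, its signalling partner, measured 8.56, 11.1 and 10.4 FPKM against 2.20, 2.05 and 2.41 FPKM (1.77, SE 0.15, adjusted p = 1.0e-05). IL13RA2, a decoy that binds IL-13 and is also known as a testis antigen, measured 0.452, 0.239 and 0.0576 FPKM against 4.83, 3.98 and 4.12 FPKM (-2.10, SE 0.17, adjusted p = 9.4e-06). The signalling chains were thus high where the decoy was near 0, with no overlap for any of them, although IL4R stood at 0.94 after median-of-ratios scaling and was then not called.

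**Figure D3:**
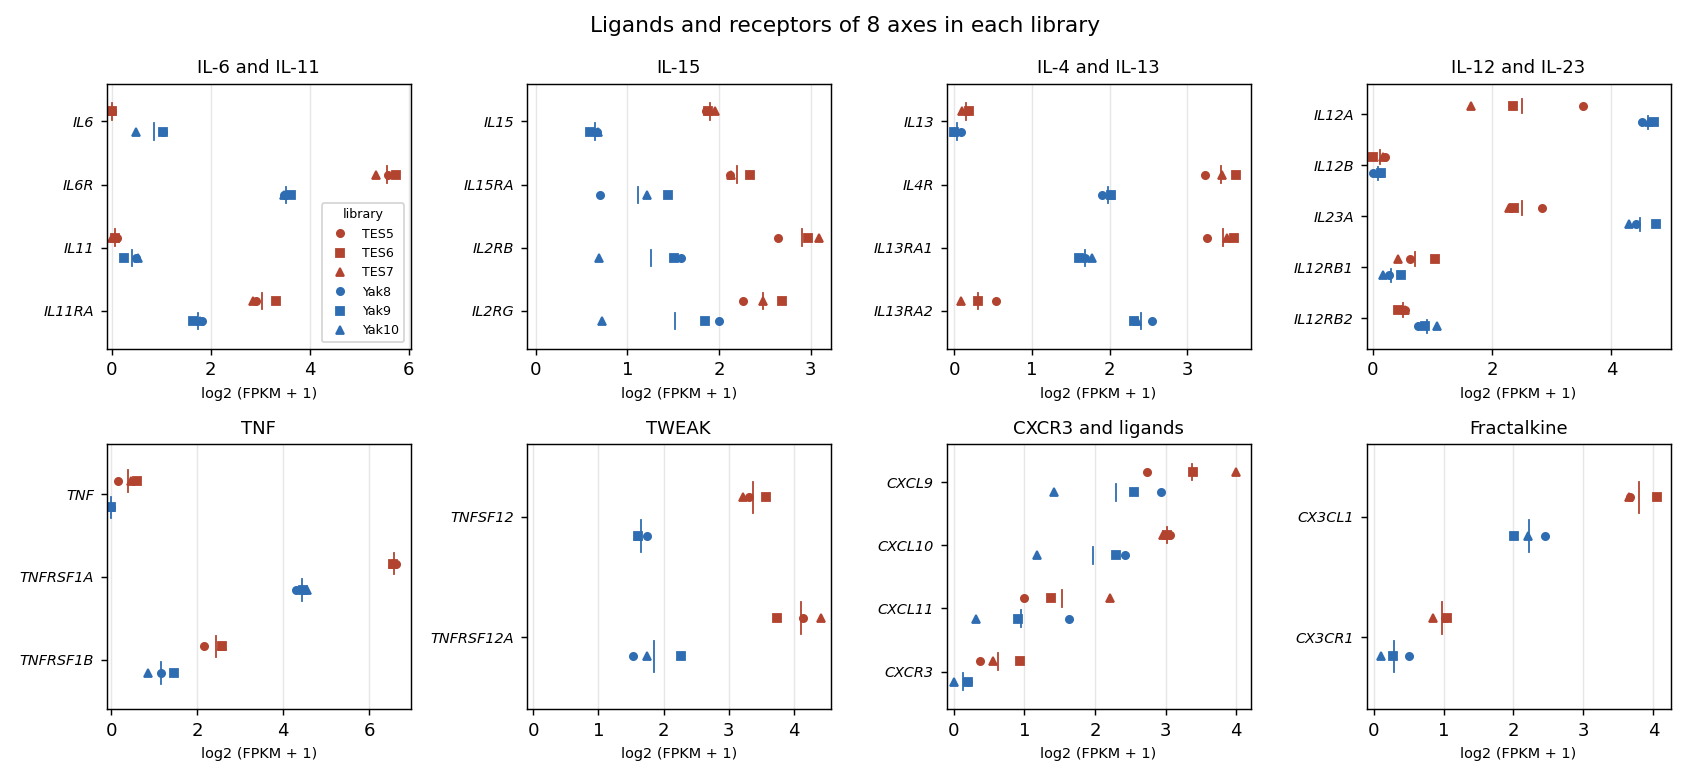
Ligands and receptors of 8 signalling axes in each library, as log2(FPKM + 1) on the horizontal axis, with a panel for each axis and a row for each gene. Red symbols are cattle-yak and blue symbols yak libraries, with ticks at the group means; IL6 and TNF are listed at 0 in every library of 1 group while IL6R and TNFRSF1A lie apart from yak in all 3 cattle-yak libraries.

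Of the IL-10 and IL-20 family, IL10RA, the ligand-binding chain for IL-10, measured 10.01, 8.54 and 6.92 FPKM in cattle-yak and 1.28, 1.50 and 1.47 FPKM in yak (log2 fold change 1.96, SE 0.16, adjusted p = 1.0e-05). Its partner IL10RB, which is shared by several cytokines of the family, was higher in every cattle-yak library, at 15.1, 19.6 and 18.6 FPKM against 9.84, 9.57 and 8.71 FPKM, with a log2 fold change of 0.85 (adjusted p = 4.1e-04) within the fold threshold. IL10 held at most 7 fragments in a library. IL22, which acts on epithelia, was seen mainly in yak. It (ENSBGRG00000020656) held 5, 1 and 0 fragments in cattle-yak and 75, 74 and 54 in yak, or 0.161 ± 0.210 against 4.87 ± 0.828 FPKM (SD, n = 3, log2 fold change -2.34, SE 0.19, adjusted p = 9.1e-06). IL20RA, a chain of receptors for the IL-20 cytokines, was called lower too, at 1.20, 1.63 and 0.932 FPKM against 5.05, 3.86 and 7.72 FPKM (-1.51). IL22RA1, the other chain of the IL-22 receptor beside IL10RB, held at most 2 fragments in any library.

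Over the 6 libraries, the IL-12 family held the most abundant interleukin ligands. IL12A, the smaller subunit of IL-12, measured 10.5, 4.09 and 2.14 FPKM in cattle-yak and 21.8, 25.1 and 23.9 FPKM in yak. The cattle-yak libraries spread widely while the yak libraries agreed, and the groups did not overlap (log2 fold change -2.11, SE 0.40, adjusted p = 0.0013). IL23A, the subunit specific to IL-23, measured 6.16, 4.19 and 3.89 FPKM against 20.2, 26.0 and 18.7 FPKM (-1.98, SE 0.19, adjusted p = 2.1e-05). IL12B, the subunit that both heterodimers need, held at most 4 fragments in any library. The receptor chains were low as well, with IL12RB1 under the filter and IL12RB2 at 0.418 ± 0.0662 against 0.885 ± 0.212 FPKM (SD, n = 3, -0.41, adjusted p = 0.041, and -1.03 with a call by voom).

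IL-17 receptors moved apart. IL17RA, the chain common to the family, measured 8.20, 10.4 and 7.90 FPKM in cattle-yak and 2.35, 2.27 and 2.69 FPKM in yak (log2 fold change 1.51, SE 0.15, adjusted p = 2.9e-05), and IL17RD was called higher at 1.03, a value that dropped under the threshold without TES6 (0.95) or Yak10 (0.997) and after median-of-ratios scaling (0.60). IL17RE, an epithelial chain, was called lower at 1.47, 0.981 and 0.816 FPKM against 4.21, 4.18 and 3.18 FPKM (-1.22), and IL17RC overlapped (-0.22, SE 0.22). IL17F held 2 fragments in cattle-yak and 154 in yak, a ratio of 67.9 (95% interval 18.5 to 566), and its log2 fold change was -1.61 (SE 0.24, adjusted p = 3.1e-04). IL17D was level, at 1.51 ± 0.109 and 1.48 ± 0.313 FPKM (SD, n = 3), with a sign that turned after median-of-ratios scaling and without TES6 or Yak9.

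In the IL-1 and IL-18 family, IL18, which drives interferon gamma production, was called higher at 8.45, 9.56 and 13.3 FPKM against 3.10, 1.68 and 2.22 FPKM (log2 fold change 1.78, SE 0.22, adjusted p = 9.0e-05). Its inhibitor IL18BP overlapped between groups (0.65, adjusted p = 0.036). IL1R1, the signalling receptor of IL-1, measured 2.45, 3.49 and 2.94 FPKM against 1.22, 0.641 and 1.04 FPKM (1.01), a call lost without TES6 (0.92) or Yak9 (0.89) and after median-of-ratios scaling (0.63). The decoy IL1R2 was higher in yak, at 0.170 ± 0.0437 against 1.17 ± 0.668 FPKM (SD, n = 3, -0.85, adjusted p = 0.0072), and was called lower after median-of-ratios scaling (-1.06), with a pseudocount of 0.1 (-2.13) and with voom (-2.52). IL1A held 0 fragments in cattle-yak and 8, 1 and 3 in yak, 3.53-fold higher in yak against the floor of 3 fragments. IL1B held 8, 5 and 1 fragments in cattle-yak against 2, 2 and 0 in yak. IL33 did not differ beyond its spread (0.17, SE 0.20).

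Of the remaining interleukins, IL34, a ligand of the macrophage receptor CSF1R, measured 1.17, 2.11 and 1.20 FPKM against 0.423, 0 and 0.107 FPKM (log2 fold change 1.08, adjusted p = 0.0016), with values of 0.91 without TES6, 0.97 without Yak9 and 0.86 after median-of-ratios scaling. IL16, a chemoattractant of CD4+ cells released from a larger precursor, stood on 3 genes. The most abundant of them (ENSBGRG00000007989) measured 0.870, 1.34 and 0.888 FPKM against 6.57, 9.46 and 6.41 FPKM and was called lower (-2.05, SE 0.19, adjusted p = 1.8e-05), while the others held at most 7 fragments in a library. IL5RA, of eosinophils, was called higher at 1.07, but fell to 0.96 without TES5, 0.94 without TES7, 0.87 without Yak10 and 0.80 after median-of-ratios scaling. IL4I1 (ENSBGRG00000020877), the oxidase, was the most abundant gene of the set in yak. It measured 28.0, 16.4 and 7.87 FPKM in cattle-yak and 350.0, 429.8 and 342.5 FPKM in yak, a ratio of 21.5 in favour of yak (log2 fold change -4.50, SE 0.37, adjusted p = 8.7e-06), the largest difference among the 83 genes.

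Within the TNF superfamily the receptors of TNF and TWEAK carried the largest rises. TNFRSF1A (ENSBGRG00000001449), the broadly expressed receptor of TNF, measured 98.1, 93.1 and 93.5 FPKM in cattle-yak and 18.7, 21.1 and 22.6 FPKM in yak. It was the most abundant of these genes in cattle-yak, with a ratio of means of 4.56 and a log2 fold change of 2.14 (SE 0.10, adjusted p = 5.9e-07), the smallest adjusted p of the set. TNFRSF1B, the TNF receptor of leukocytes and endothelium, measured 3.45, 5.01 and 4.95 FPKM against 1.23, 1.74 and 0.828 FPKM (1.28, SE 0.21, adjusted p = 4.8e-04) and stood at 0.85 after median-of-ratios scaling. TNF itself held 1, 4 and 3 fragments in cattle-yak and 0 in each yak library, 3.02-fold higher in cattle-yak against the floor of 3 fragments.

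TNFRSF12A (ENSBGRG00000024619), the TWEAK receptor, measured 16.6, 12.4 and 20.4 FPKM in cattle-yak and 1.90, 3.81 and 2.34 FPKM in yak (log2 fold change 2.25, SE 0.24, adjusted p = 3.8e-05). Its ligand TNFSF12, or TWEAK, moved the same way, at 8.94, 10.9 and 8.31 FPKM against 2.34, 2.04 and 2.06 FPKM (1.71, SE 0.15, adjusted p = 1.3e-05). Both kept their calls under every alternative. TNFSF10, or TRAIL, an inducer of apoptosis, measured 4.69, 5.07 and 5.59 FPKM against 2.03, 1.32 and 0.802 FPKM (1.39), and 0.95 after median-of-ratios scaling. Its receptor TNFRSF10A was higher in every cattle-yak library, at 14.7, 11.4 and 15.1 FPKM against 10.8, 7.92 and 5.36 FPKM, within the fold threshold (0.75, adjusted p = 0.015). After median-of-ratios scaling TNFRSF10A stood at 0.19 and did not pass the adjusted p (0.48).

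Lower in cattle-yak were a death-domain receptor, a plasma cell receptor and a ligand. TNFRSF21 measured 3.04, 3.85 and 2.60 FPKM against 13.5, 10.5 and 13.6 FPKM (log2 fold change -1.71, SE 0.17, adjusted p = 2.6e-05). TNFRSF17, or BCMA, the receptor of plasma cells, measured 1.71, 0.302 and 1.16 FPKM against 6.35, 3.54 and 5.06 FPKM (-1.58, SE 0.30, adjusted p = 0.0012). TNFSF18, the ligand of GITR, held 2, 2 and 3 fragments against 52, 41 and 29 (-1.30, SE 0.18, adjusted p = 1.7e-04). The other B cell receptors of the superfamily did not share this direction, with TNFRSF13B at 0.778 ± 0.0554 against 0.261 ± 0.207 FPKM (SD, n = 3, 0.51, adjusted p = 0.023, called with a pseudocount of 0.1 at 1.42 and with voom at 1.68) and TNFRSF13C under the filter. After median-of-ratios scaling TNFRSF13B stood at 0.32 and did not pass the adjusted p (0.14). TNFRSF19, an orphan receptor, passed the adjusted p (0.0054) at 0.88 and was called without TES5 (1.04), with a pseudocount of 0.1 (1.31) and with voom (1.36). After median-of-ratios scaling it stood at 0.49 and did not pass (adjusted p = 0.060). TNFRSF11A, or RANK, leaned to yak without passing (-0.34, adjusted p = 0.061), and TNFSF4, TNFSF8, TNFSF9 and TNFRSF4 overlapped between groups.

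The 67 genes under the filter held 118 fragments or fewer each over the 6 libraries where fragments could be recovered. Listed at 0 in every cattle-yak library were 13 genes, among them IL6, CXCR5, CCL20, IL1A and IL21, and 8 genes were listed at 0 in every yak library, among them TNF, CCR7 and CXCL6. Of all 18918 genes, 1848 to 2176 were listed at 0 in a single cattle-yak library and 1658 to 1819 in a single yak library. Being at 0 in a single library is a looser condition than 0 in every library of a group. The matching counts over all genes were not taken, so the 13 and 8 have no background here. In the fit with no filter, 10 of the 67 passed the adjusted p with higher and 8 with lower values, but genes this low cannot pass the fold threshold on log2(FPKM + 1) and so could not be called. The matching shares over all genes under the filter were not taken, so these counts do not set the 67 apart. CCL20, the ligand of CCR6, held 0 fragments against 8, 2 and 9, 5.59-fold higher in yak against the floor of 3 fragments. CCL28, an epithelial chemokine, held 19 fragments in each cattle-yak library and 4, 2 and 10 in yak.

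Signal transducers downstream of these receptors were taken as a list of 43 genes, of which 42 were in the table and tested. Of these, 21 were called higher and 1 lower (33.4% and 20.8% of all tested genes), with a median log2 fold change of 1.05, or 12 and 3 (17.7% and 27.8% of all tested genes) with a median of 0.61 after median-of-ratios scaling. TNFAIP3, which limits NF-kappa B signalling downstream of TNF receptors, measured 8.52, 7.65 and 10.02 FPKM in cattle-yak and 1.20, 0.918 and 1.44 FPKM in yak (2.16, SE 0.16). STAT3, the transducer of IL-6 family receptors, measured 11.9, 10.99 and 12.2 FPKM against 3.53, 3.52 and 3.05 FPKM (1.55, SE 0.13). The gene called lower was STAT4, the transducer of IL-12, at 10.7, 11.2 and 7.88 FPKM against 170.9, 182.4 and 210.3 FPKM (-4.12, SE 0.15, adjusted p = 1.9e-07).

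Leukocyte markers moved in both directions, and their part in these results was not tested. Their calls are read beside the 33.4% called higher and 20.8% called lower of all tested genes. Of 7 tested T cell markers, 3 were called higher and 0 lower, and the list summed to 22.3 to 39.3 FPKM in cattle-yak and 11.4 to 24.3 FPKM in yak. Of 7 pan-leukocyte markers, 4 were called higher and 1 lower, with sums of 45.9 to 69.6 and 25.8 to 40.0 FPKM. Of 10 macrophage markers, 5 were called higher and 2 lower, with sums of 139.0 to 195.3 and 113.7 to 152.5 FPKM, where C1QA, C1QB and C1QC rose while AIF1 and CD14 fell. B cell markers went the other way, with 0 called higher and 2 lower of 3 tested and sums of 1.60 to 5.01 and 11.001 to 12.7 FPKM, beside the lower TNFRSF17 and CXCR5. Of 8 endothelial markers, 5 were called higher and 1 lower (sums of 51.8 to 72.6 and 35.1 to 43.0 FPKM), and of 3 neutrophil and mast cell markers 0 and 1. After median-of-ratios scaling the calls higher and lower were 0 and 0 for T cell, 1 and 1 for pan-leukocyte and 3 and 2 for macrophage markers. They were 0 and 3 for B cell, 0 and 1 for endothelial and 0 and 1 for neutrophil and mast cell markers. The shares of all tested genes under that scaling were 17.7% and 27.8%. None of the markers in the table was listed at 0 in all 6 libraries.

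Single libraries also shaped the spread within groups. Yak10 was the lowest yak library for 41 of the 83 genes (49.4%, beside 30.3% of all tested genes), and its T cell and pan-leukocyte sums, 11.4 and 25.8 FPKM, were below those of Yak8 (21.7 and 35.4) and Yak9 (24.3 and 40.0). TES6 was the highest cattle-yak library for 46 genes (55.4%, beside 37.8%). Without Yak10, 23 genes were called higher and 16 lower of 87 tested, and without TES6, 24 and 15 of 82. Shares over all genes were not taken for these fits, so the counts do not set these genes apart. Of the 15 genes called lower, 6 fell in the order TES5, TES6, TES7 (40.0%, beside 45.4% of all genes called lower), among them IL4I1, IL12A and IL23A, and the spermatid marker sum ran in that order too, at 85.9, 34.1 and 18.3 FPKM.

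The choice of scaling decided the balance of calls. With FPKM as deposited, 64.3% of the calls among these genes were higher in cattle-yak, and with median-of-ratios size factors 43.8%, at 14 higher and 18 lower beside 17.7% and 27.8% of all tested genes. The median log2 fold change of the 83 genes moved from 0.58 to 0.23. All 15 genes called lower stayed lower under that scaling, joined by ACKR1, IL1R2 and 1 of the CCR1 genes. The scaling shifts fold changes downwards, so a call lower could hardly be lost by it. The 14 genes that stayed higher were CCL21, CCL8, CX3CL1, ACKR3, IL6R, IL27RA, IL10RA, IL13RA1, IL2RB, IL17RA, IL18, TNFRSF1A, TNFRSF12A and TNFSF12.

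**Figure D4:**
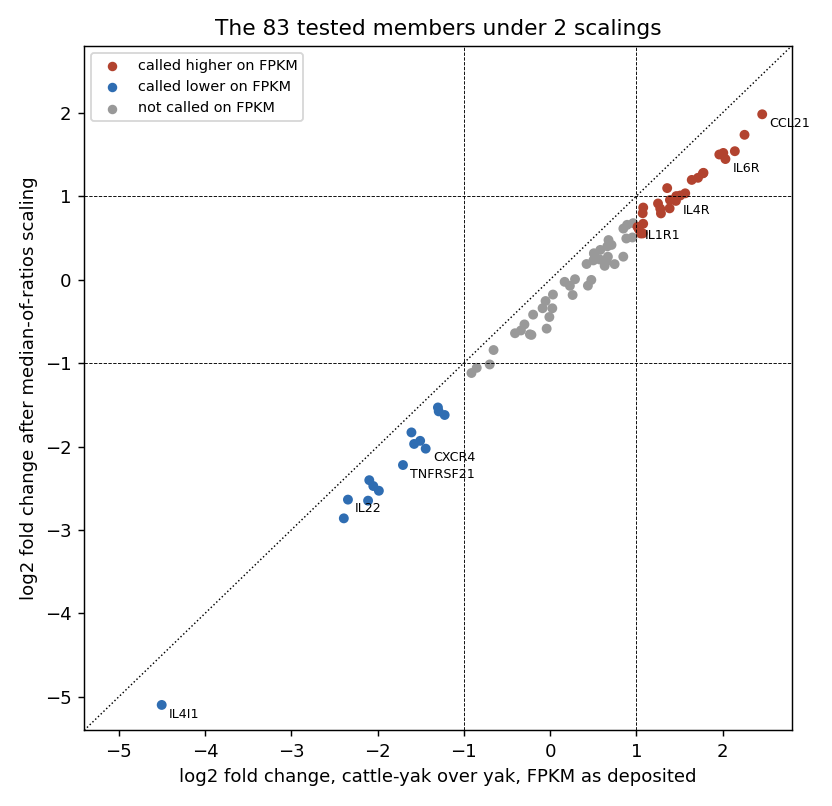
Log2 fold change of the 83 tested genes, cattle-yak over yak, with FPKM as deposited on the horizontal axis and after median-of-ratios scaling on the vertical axis. Red, blue and grey points are genes called higher, called lower and not called on FPKM, dashed lines mark a fold change of 1 in either direction and the dotted diagonal marks equality; the points lie below the diagonal, and IL4I1 lies farthest from 0, at -4.50 and -5.10.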

How the data were processed

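Testis RNA of 3 cattle-yak and 3 yak was sequenced as paired reads from poly(A) libraries made with a stranded kit. Per the study's methods, the authors trimmed reads (Trimmomatic), aligned those of both groups to the yak build LU_Bosgru_v3.0 (HISAT2) and calculated FPKM (Cufflinks), and the labels also name DESeq. The deposited FPKM are per gene length and library depth, with no scaling between libraries. Reads of cattle alleles were thus mapped to yak sequence. Whether strand was used in counting is not given in the sources used here, so overlapping genes on opposite strands may share values. 0 columns of values were left unused.

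Columns were assigned by their titles. Whole fragments were recovered from ratios of FPKM within a gene (17972 of 17973 genes with at least 2 values above 0, within 0.03 of a whole number), and on simulated data 98.5% of 5895 genes came out exactly. Genes with a mean of at least 0.5 FPKM were fitted with limma 3.58.1 (trended prior, R 4.3.3) on log2(FPKM + 1). On simulated data for this comparison (15041 genes), 183 of 200 genes changed 4-fold were called. The changed genes were drawn from those above 1 FPKM in yak, with a fixed spread and no other gene changed. That share thus does not carry over to genes with lower values or to a shift across most genes. P-values measure the spread between animals. With 3 against 3, an exact permutation test of 1 gene could not go below 0.1.

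The genes to be named were the 10 largest called changes in each direction without overlap, the 10 highest means, and a list of ligand and receptor axes, 102 genes in all. Not all of them are described above. CCL24 (log2 fold change 0.58, adjusted p = 0.028) was called higher with a pseudocount of 0.1 (1.39) and with voom (1.63). TNFRSF6B (0.67, adjusted p = 0.031) was called higher with voom (1.01). After median-of-ratios scaling CCL24 stood at 0.36 (adjusted p = 0.14) and TNFRSF6B at 0.27 (adjusted p = 0.31). Others with few fragments, an overlap or a call outside these rules, such as CCL8, CCL14 and CCR4, were named after their values were seen. The gene set, its lists and the markers were chosen with earlier results of these data known. IL6ST, IL4 and CXCR1 were not analysed here. Alternatives were a pseudocount of 0.1, no filter, a filter of 1 FPKM, median-of-ratios scaling, no trend, voom on the recovered fragments, and each library left out. No genome was used, so positions and sequences are not given. Python 3.11.15 was used for the remaining steps.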

Additional observations from a re-analysis of the deposited data

How the results depend on the processing

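The 27 genes called higher and 15 called lower of 83 became 35 and 19 with a pseudocount of 0.1. With no filter, all 150 genes were tested and 26 and 15 were called, beside 26.5% and 16.6% of all 18918 genes. The counts were 26 and 14 with a filter of 1 FPKM (60 genes tested), 26 and 15 with no trend, and 37 and 19 with voom on recovered fragments. Median-of-ratios scaling gave 14 and 18, beside 17.7% and 27.8% of all tested genes. Shares over all genes were taken for the main fit, no filter and median-of-ratios scaling only. With each library left out in turn the counts ran from 23 to 30 and from 15 to 16. Under every alternative that tested them, 14 of the 27 and all 15 kept their call. Median-of-ratios scaling reversed the sign of 4 uncalled genes, CXCL16 (-0.072), the CCR1 gene ENSBGRG00000010316 (-0.18), IL33 (-0.027) and IL17D (-0.34), and the scaling itself lowered the median over all genes. With a library left out, CCR2 ran from -0.26 to 0.051 and IL17D from -0.056 to 0.12. For the other changes of call the cause was not tested. No paired analysis was possible because no label ties an animal of 1 group to an animal of the other, and the replicate numbers only name the libraries. Genes with few fragments are limited by depth, at about 0.08 FPKM for 1 fragment on 1 kb.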
